A study of Mus musculus with 11 samples.

Results

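The 10 genes described here encode the machinery that writes N6-methyladenosine (m6A), the commonest internal mark of messenger RNA, together with a pair of related adenine methyltransferases. They are Mettl3, Mettl14, Wtap, Virma, Zc3h13, Rbm15, Rbm15b, Cbll1, Mettl16 and Mettl4. The rule names them, uses no measured value, and finds them by Ensembl identifier. All 10 have a row among the 39179 gene rows of the deposited table, and all 10 are among the 15781 genes with a mean normalized count of at least 10 that were tested.

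m6A is written while the transcript is made. METTL3 holds the active site and binds the methyl donor S-adenosylmethionine, and METTL14 pairs with it to grip the RNA. WTAP, VIRMA, ZC3H13 and the ubiquitin ligase CBLL1 (HAKAI) hold the pair in nuclear speckles and direct it to sites along the transcript, and RBM15 and RBM15B bring it to particular RNAs. In mouse embryonic stem cells m6A is known for marking transcripts of pluripotency genes for decay.

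RNA-seq had been made from Mettl3 knockout (KO) and wild-type (WT) mouse cells of strain C57BL/6. KO embryonic stem cells (ESCs) have 3 libraries, named A, B and C, and WT ESCs have 3. KO embryoid bodies (EBs, floating aggregates in which ESCs differentiate) have 2 libraries, A and B, and WT EBs have 2. The ESCs were kept naive in serum-free N2B27 medium with LIF and inhibitors of GSK3 (CHIR99021) and MEK (PD0325901), and the EBs were grown without attachment in serum medium for between 8 and 21 days. The labels call the replicates biological and give neither the number of KO clones nor which part of Mettl3 was disrupted. The day of each EB library is not given in the sources used here.

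Values are read counts per gene that the authors divided by a size factor for each library with DESeq. Differences are log2 differences of the normalized count plus 1, KO minus WT or EB minus ESC, with the standard error (SE) and the adjusted p of limma, fitted to all 15781 genes over the 4 groups. A gene was called at an adjusted p under 0.05. The fit gives a gene the same spread in all 4 groups. The SEs, intervals and p of EB comparisons therefore also hold the spread among ESC libraries, replicate C included. The libraries hold 8523027 to 15426894 reads in genes, except ESC replicate C, with 3075007 in KO and 3026837 in WT. Replicate C, which the labels tie to a parallel protein measurement, stands apart from A and B in both genotypes. The summed count of 6 RNAs with no poly(A) tail was 200 in KO and 102 in WT ESC replicate C, and 275000 or more in every other library. Collagen Col3a1 had 19.4 in KO and 23.1 in WT replicate C, against 6222 and 6532 in KO and 3115 and 3171 in WT ESC replicates A and B. The summed count of 9 ESC markers was 41216 to 49278 in KO ESCs and 33425 to 67557 in WT ESCs, with none at 0, and that of 8 fibroblast and matrix markers was 230.5 to 12001 in KO ESCs and 230.6 to 7309 in WT ESCs, lowest in replicate C. The part of these markers in the values below was not tested. Deviations of ESC libraries from their group means mostly set C apart from A and B. They correlated at 0.845 (A) and 0.828 (B) for same-letter pairs, against 0.812 and 0.809 for crossed pairs of A and B. In EBs the values, 0.369 for same-letter and -0.369 for crossed pairs, mirror each other by construction and cannot decide. The fit with the replicate letter as a block therefore assumes pairing by letter, which was not shown for A and B or for EBs. That fit is given wherever it alters the call of a member, and as counts for the other gene lists.

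The 4 methyltransferases of the set carry a short motif at the place of the active site, whose codons are shown because they separate the enzymes from the other 6 members. Each stretch of coding sequence comes from the GENCODE annotation of GRCm38, with the 4 codons of the motif in capitals. The motif is DPPW in METTL3 and METTL4 and NPPF in METTL16, while METTL14, which has no activity of its own, carries EPPL at that place. The Mettl3 stretch lies in exon 6 of 11, at chr14:52297557-52297616 on the minus strand. The Mettl14 stretch lies in exon 7 of 11, at chr3:123374781-123374840 on the minus strand. The Mettl16 stretch lies in exon 5 of 11, at chr11:74792259-74792318 on the plus strand. The Mettl4 stretch lies in exon 5 of 9, at chr17:94739459-94739518 on the minus strand.
Mettl3: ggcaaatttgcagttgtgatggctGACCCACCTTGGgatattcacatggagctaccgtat
Mettl14: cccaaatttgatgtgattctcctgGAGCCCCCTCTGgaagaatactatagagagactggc
Mettl16: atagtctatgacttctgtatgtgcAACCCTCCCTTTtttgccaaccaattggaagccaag
Mettl4: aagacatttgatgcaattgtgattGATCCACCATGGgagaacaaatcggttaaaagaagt

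A second set of sequences is shown because the level of Wtap is uncertain where its reads match a near-identical copy. Gm14292 is an intronless copy of the start of the Wtap coding sequence, 456 bases long, at chr2:179177425-179177880 on the plus strand of GRCm38. Over 452 bases compared it differs from Wtap at 3 positions, an identity of 99.3%, and its opening 248 bases are the same. The comparison stops after base 452 because the next base differs from the coding sequence used. The 130 bases below hold all of the differences within those 452 bases, written in capitals. They are A249G, C273T and A348G when positions are counted from 1 at the A of the Wtap start codon. In Wtap the 130 bases come from exon segments at chr17:12980822-12980864 and chr17:12975388-12975474 on the minus strand, and in the copy from chr2:179177655-179177784.
Wtap: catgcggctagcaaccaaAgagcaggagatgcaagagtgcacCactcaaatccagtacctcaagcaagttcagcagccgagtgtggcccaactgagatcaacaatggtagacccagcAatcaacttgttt
Gm14292: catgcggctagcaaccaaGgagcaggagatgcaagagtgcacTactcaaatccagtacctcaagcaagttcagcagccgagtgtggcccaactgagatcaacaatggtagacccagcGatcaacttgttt

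The EBs of the genotypes differed in cell type markers. The summed normalized count of 8 endoderm markers was 246 to 258 in KO EBs and 44324 to 44723 in WT EBs, with Afp at 0 in both KO EB libraries and no marker at 0 in WT EBs. That of 7 mesoderm and cardiac markers was 36.7 to 42.5 in KO EBs, with Actc1 at 0, and 308 to 401 in WT EBs. The 9 ESC markers summed to 26720 to 30533 in KO EBs and 17144 to 19184 in WT EBs, and 6 neural markers to 745 to 973 in KO EBs and 403 to 502 in WT EBs. In bulk RNA, fewer cells of a type and less RNA per cell cannot be told apart, and the part of these markers in the EB values was not tested.

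**Figure D1:**
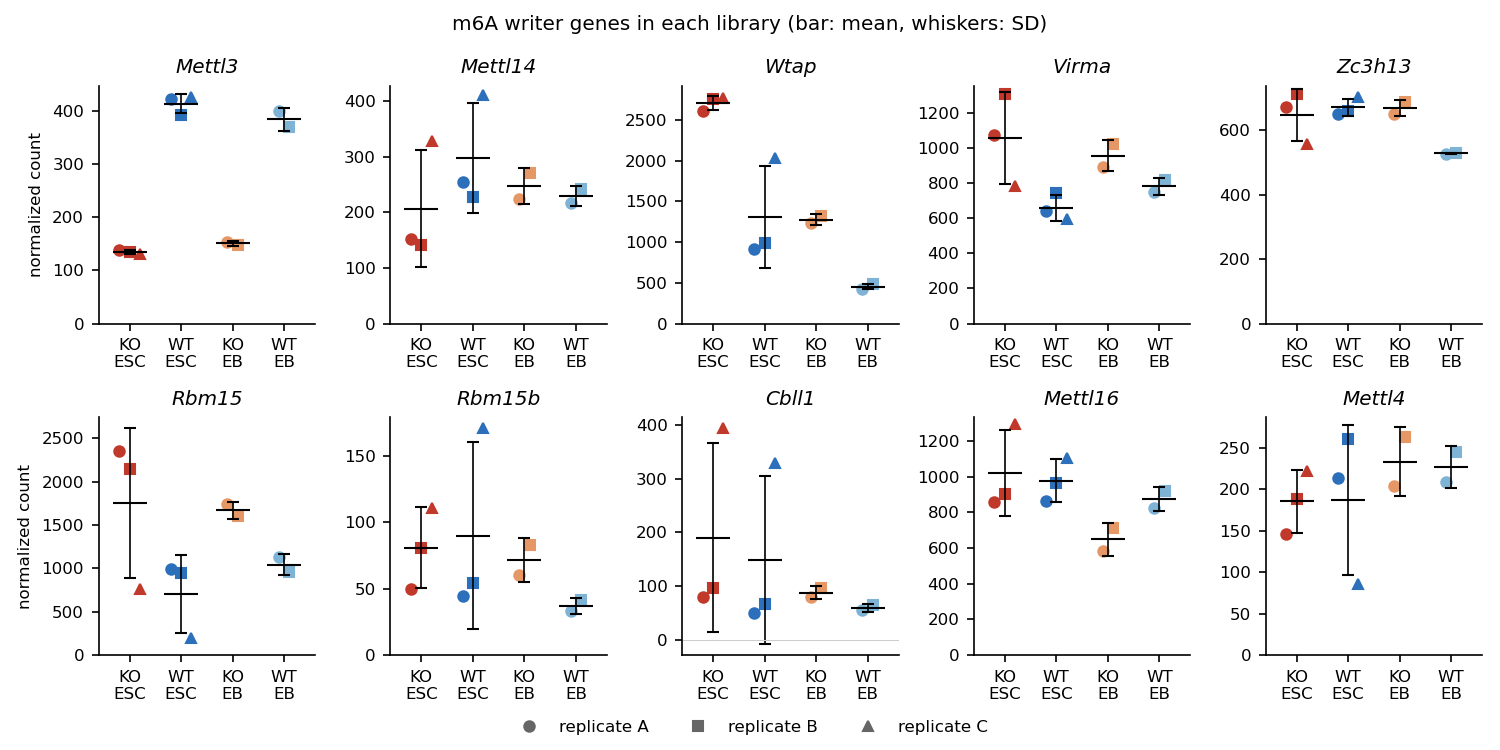
Normalized count of each of the 10 genes (vertical axis, linear, one scale per panel) in each library of KO ESCs, WT ESCs, KO EBs and WT EBs; points are libraries, with circles, squares and triangles for replicates A, B and C, bars are means and whiskers are SDs. Mettl3 lies between 131 and 154 in the KO libraries and between 368 and 425 in the WT libraries, while replicate C of the ESCs lies far from A and B for Rbm15 and Cbll1.

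Mettl3 (chromosome 14, 52294841 to 52305128, minus strand) was lower in KO than in WT cells, in ESCs and EBs alike. Its normalized count was 138, 134 and 131 in KO ESCs A, B and C, against 422, 392.3 and 425 in WT ESCs. In EBs it was 154 and 147 in KO, against 399 and 368 in WT. Each KO library lay below each WT library in both states, and the replicates lay close together, replicate C included. The mean was 134 ± 3.87 in KO ESCs and 413 ± 18.04 in WT ESCs (SD, n = 3 each), a log2 difference of -1.62 (SE 0.14, limma adjusted p = 0.0123). In EBs the mean was 150 ± 5.01 in KO and 384 ± 21.7 in WT (SD, n = 2 each), a log2 difference of -1.34 (SE 0.17, limma adjusted p = 0.0143). Mettl3 was the only writer gene called, 1 of 10, in each state, where 2.38% of all tested genes were called in ESCs (1.31% higher and 1.07% lower in KO) and 1.84% in EBs (0.469% higher and 1.37% lower). Without ESC replicates A or B, or with any EB library left out, the ESC call was lost, with adjusted p between 0.0736 and 0.102 and log2 differences between -1.65 and -1.60. The EB call was lost with any 1 of the 4 EB libraries left out, with adjusted p between 0.169 and 0.232.

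The Mettl3 count left in KO cells, 0.326 of WT in ESCs and 0.394 in EBs, cannot be placed along the gene from these values. Of the annotated Mettl3 exon bases, 18.4% overlap exons of Tox4, a gene of the opposite strand that encodes a chromatin protein, and the library kit does not keep the strand. Tox4 had 898, 847 and 775 in KO ESCs, against 945, 986 and 926 in WT ESCs. Its EB values were 720 and 708 in KO, against 1018 and 1030 in WT. Its log2 difference was -0.18 in ESCs (limma adjusted p = 0.541) and -0.52 in EBs (adjusted p = 0.145, and 0.0155 with the replicate block). The Tox4 libraries of KO lay below those of WT in each state, by far less than those of Mettl3. Whether the overlap adds reads to the Mettl3 count or takes reads from it was not tested.

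Mettl14 (chromosome 3, 123368297 to 123386108, minus strand), the partner of METTL3, was lower in KO than in WT ESCs in each same-letter pair and nearly level in EBs. It had 152, 141 and 328 in KO ESCs A, B and C, against 255, 228 and 412 in WT ESCs. The KO over WT ratio was 0.596 for A, 0.617 for B and 0.796 for C. The groups overlap because replicate C is high in both genotypes. The log2 difference in ESCs was -0.59 (SE 0.37, limma adjusted p = 0.508), with an adjusted p of 0.0209 with the replicate block and 0.00137 without both C libraries. Those 2 fits called 29.3% and 55.2% of all tested genes. In EBs Mettl14 had 224 and 270 in KO, against 217 and 242 in WT, a log2 difference of 0.10 (95% interval -0.95 to 1.15, limma adjusted p = 1). The ratio of Mettl3 to Mettl14 counts was 0.91, 0.948 and 0.398 in KO ESCs, against 1.66, 1.72 and 1.03 in WT ESCs. In EBs it was 0.688 and 0.544 in KO, against 1.84 and 1.52 in WT, so this ratio was lower in each KO library than in each WT library.

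Wtap (chromosome 17, 12966796 to 12994169, minus strand), the adaptor that recruits the catalytic pair, was higher in KO than in WT, without overlap, in both states. It had 2609, 2755 and 2763 in KO ESCs A, B and C, against 918, 985 and 2032 in WT ESCs. In EBs it had 1229 and 1324 in KO, against 429 and 479 in WT. WT replicate C lies nearer to the KO libraries than to WT A and B. The KO over WT ratio was 2.84 for ESC A, 2.80 for ESC B, 2.86 for EB A and 2.76 for EB B, but 1.36 for ESC C (95% counting interval 1.23 to 1.51). The log2 difference was 1.14 in ESCs (SE 0.29, limma adjusted p = 0.0886, and 0.0211 with the replicate block). It was 1.49 in EBs (SE 0.35, limma adjusted p = 0.0896, and 0.0226 with the replicate block). Without both C libraries the log2 difference in ESCs was 1.49, with a limma adjusted p of 4.09e-06. That fit rests on the spread of A and B alone and called 55.2% of all tested genes.

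The copy Gm14292 was higher in KO than in WT in every same-letter pair but that of ESC replicate C. It had 726, 728 and 0 in KO ESCs A, B and C, against 281, 281 and 29.6 in WT ESCs. The copy had 336 and 360 in KO EBs, against 169 and 133 in WT EBs. It took 20.9% to 28.3% of the counted reads of Wtap and Gm14292 together outside replicate C. Reads aligned to several places are kept on a line of their own and enter neither count. Their part in these values was not tested. In WT replicate C, where it had 9 reads, the share was 1.44%, and in KO replicate C it had none. Reads of processed pseudogenes as a class made up 0.116% of gene reads in KO and 0.249% in WT replicate C, against 3.71% to 4.61% in the other libraries, and the part of this in the level of Wtap was not tested. With the 2 counts added, the log2 difference was 1.12 in ESCs (limma adjusted p = 0.0491) and 1.42 in EBs (limma adjusted p = 0.0501), a setting chosen after the values were seen.

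**Figure D2:**
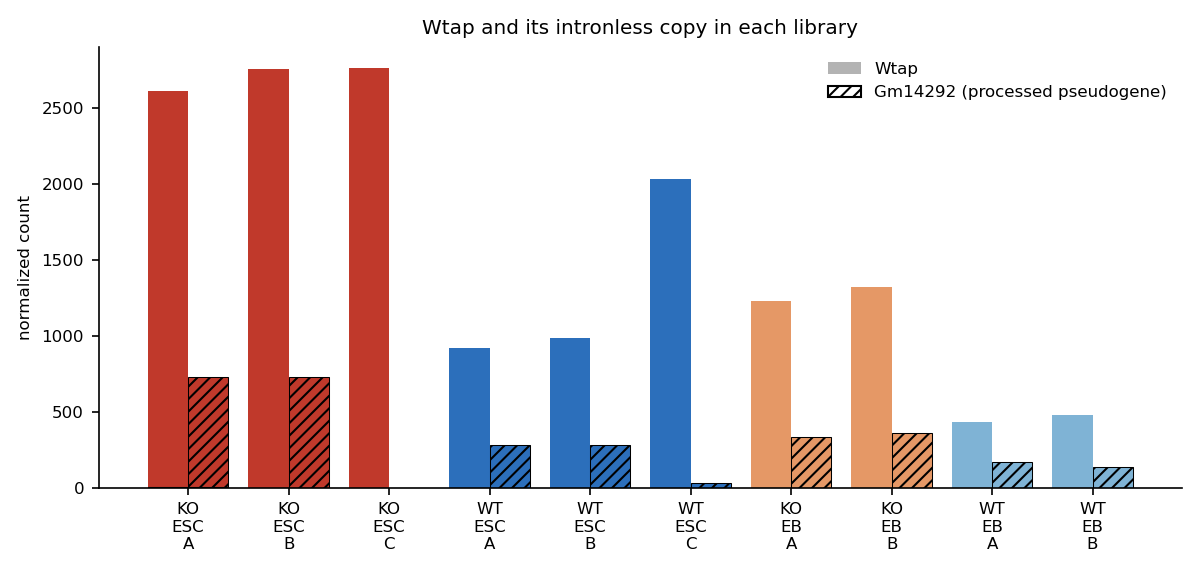
Normalized count (vertical axis, from 0) of Wtap in plain bars and of its intronless copy Gm14292 in hatched bars, for each KO and WT library of ESCs and EBs. Wtap is higher in KO than in WT in each state, and the copy, at 133 to 728 in the other libraries, is at 0 in KO ESC replicate C and at 29.6 in WT ESC replicate C.

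Virma (chromosome 4, 11485958 to 11550684, plus strand), the large scaffold subunit, was higher in KO than in WT in both states, again without overlap. It had 1074, 1310 and 786 in KO ESCs A, B and C, against 642, 744 and 600 in WT ESCs. Virma had 895 and 1022 in KO EBs, against 750 and 818 in WT EBs. The log2 difference was 0.65 in ESCs (SE 0.21, limma adjusted p = 0.153, and 0.0114 with the replicate block). In EBs it was 0.29 (95% interval -0.30 to 0.87, limma adjusted p = 0.796), and it was not called with the block either (adjusted p = 0.162).

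Zc3h13 (chromosome 14, 75284373 to 75344426, plus strand), the zinc finger protein that keeps the complex in the nucleus, overlapped between genotypes in ESCs. It had 673, 711 and 558 in KO ESCs, against 650, 660 and 702 in WT ESCs, a log2 difference of -0.06 (95% interval -0.38 to 0.26, limma adjusted p = 0.969). In EBs it had 650 and 687 in KO, against 526 and 529 in WT, and the groups did not overlap. That log2 difference was 0.34 (SE 0.17, limma adjusted p = 0.458). Cbll1 (chromosome 12, 31484829 to 31499616, minus strand), the ubiquitin ligase subunit, had low counts. It had 79.99, 97.2 and 394 in KO ESCs A, B and C, against 50.1, 65.6 and 329 in WT ESCs. Cbll1 had 79.1 and 95.9 in KO EBs, against 54.4 and 63.7 in WT EBs. Replicate C was 4.45 times the mean of A and B in KO and 5.69 times in WT. The Cbll1 log2 difference was 0.49 in ESCs (limma adjusted p = 0.911) and 0.56 in EBs (limma adjusted p = 1), with KO higher in each of the 5 same-letter pairs. Of its exon bases 17.6% lie over Gm29542, an antisense gene not analysed here, whose reads would not be told apart from its own.

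Rbm15 (chromosome 3, 107325421 to 107333673, minus strand) and Rbm15b (chromosome 9, 106880918 to 106887428, minus strand) encode related RNA-binding proteins that recruit the complex, among others to the Xist RNA. Rbm15 had 2350, 2147 and 758 in KO ESCs A, B and C, against 987, 942 and 191 in WT ESCs. Rbm15 had 1740 and 1602 in KO EBs, against 1129 and 957 in WT EBs. KO was higher in each same-letter pair, with ratios of 2.38, 2.28 and 3.97 for ESC A, B and C and of 1.54 and 1.67 for EB A and B. The groups overlap in ESCs because replicate C is low in both genotypes, at 0.337 times the mean of A and B in KO and 0.198 times in WT. The log2 difference was 1.47 in ESCs (SE 0.69, limma adjusted p = 0.335, and 0.0060 with the replicate block). In EBs it was 0.68 (SE 0.84, limma adjusted p = 0.929). This SE includes the distance of ESC replicate C from A and B. Without both ESC C libraries the EB value of 0.68 had an SE of 0.096 (limma adjusted p = 0.00046), where 51.9% of all tested genes were called.

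Rbm15b had the lower count of the pair in every library, though only narrowly in WT ESC replicate C, at 171 against 191. It had 50.1, 80.8 and 111 in KO ESCs, against 44.4, 54.2 and 171 in WT ESCs, with overlapping groups and a log2 difference of 0.04 (95% interval -1.24 to 1.32, limma adjusted p = 0.999). Rbm15b had 60.0 and 83.2 in KO EBs, against 32.9 and 41.3 in WT EBs, without overlap, a log2 difference of 0.92 (SE 0.67, limma adjusted p = 0.70). Its exons share 75 bases with Dcaf1 of the opposite strand and 14 with Manf.

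Mettl16 and Mettl4 act apart from the complex. METTL16 (gene on chromosome 11, 74770830 to 74828525, plus strand) methylates the U6 small nuclear RNA and hairpins of Mat2a, the gene of an S-adenosylmethionine synthetase. It had 855, 905 and 1294 in KO ESCs, against 861, 966 and 1103 in WT ESCs, with overlap and a log2 difference of 0.04 (95% interval -0.42 to 0.51, limma adjusted p = 0.999). Mettl16 had 583 and 712 in KO EBs, against 824 and 920 in WT EBs, and each KO library was below each WT library. That log2 difference was -0.43 (SE 0.25, limma adjusted p = 0.538, and 0.0442 with the replicate block). METTL4 (gene on chromosome 17, 94722590 to 94750019, minus strand) methylates the U2 small nuclear RNA. It had 146, 188 and 222 in KO ESCs A, B and C, against 213, 260 and 85.6 in WT ESCs, where replicate C reversed the order seen in A and B. The log2 difference of Mettl4 was 0.12 with all libraries (limma adjusted p = 0.99) and -0.51 without both C libraries (adjusted p = 0.0377). The latter fit called 55.2% of all tested genes. In EBs Mettl4 had 203 and 262 in KO, against 208 and 244 in WT, a log2 difference of 0.03 (95% interval -1.14 to 1.20, limma adjusted p = 1).

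**Figure D3:**
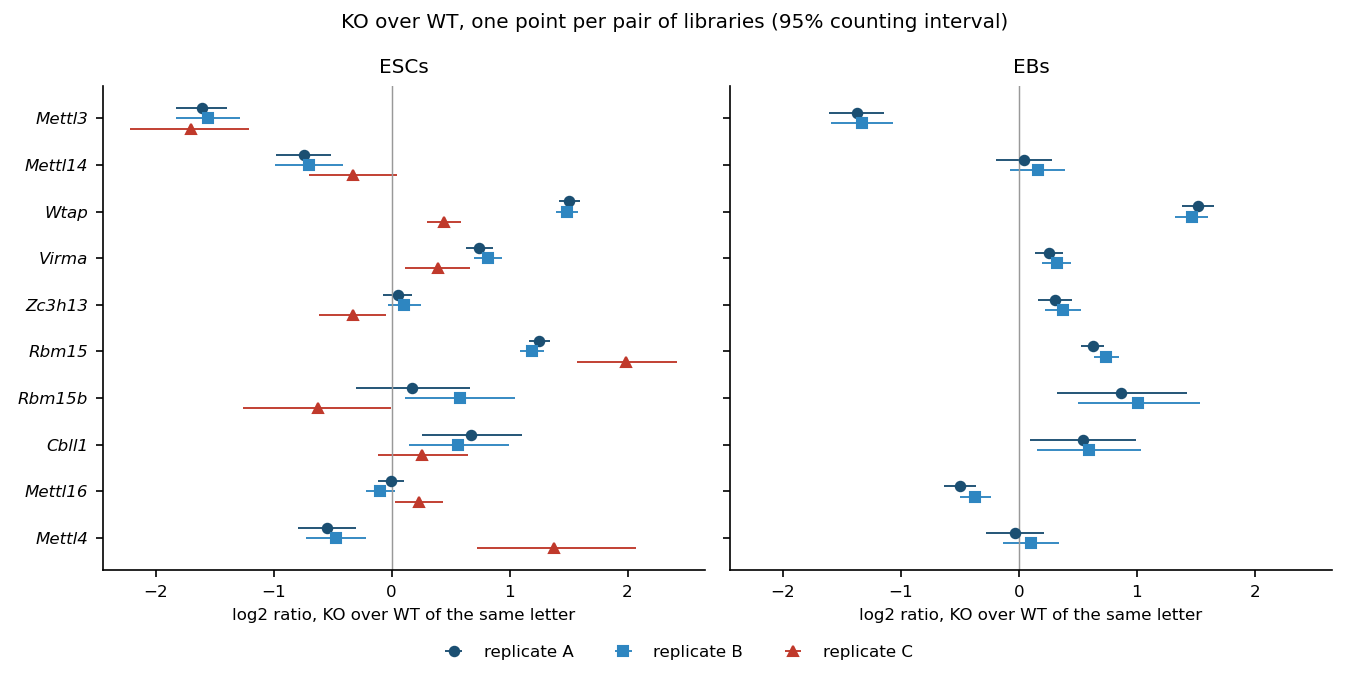
Log2 ratio of KO over WT libraries that carry the same letter (horizontal axis) for each of the 10 genes, in ESCs on the left and EBs on the right; lines are 95% counting intervals, which cover counting error only. Mettl3 is below 0 in all 5 pairs, and Wtap, Virma, Rbm15 and Cbll1 are above 0 in all 5, though the interval of Cbll1 in ESC C holds 0. Replicate C departs from A and B for Wtap and Rbm15. It lies across 0 from both for Mettl4, Zc3h13, Rbm15b and Mettl16.

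Across the set, the direction was shared by all 5 same-letter pairs for 5 genes. Mettl3, the gene knocked out, is among these and among the members called or not overlapping in the KO against WT counts that follow. Mettl3 was lower in KO in all 5, which held for 18.9% of all tested genes. Cbll1, Rbm15, Virma and Wtap were higher in KO in all 5, which held for 16.7% of all tested genes. In ESCs the libraries of KO and WT did not overlap for 2 members that were higher, Virma and Wtap (9.23% of all tested genes), and for 1 that was lower, Mettl3 (8.78%). Virma, Wtap and Mettl3 did not overlap in both states, which held for 5.91% of all tested genes for higher and 5.68% for lower. In EBs they did not overlap for 6 that were higher, against 36% of all tested genes, and for 2 that were lower, against 38.9%. The median log2 difference of the 10 genes was 0.08 in ESCs, against -0.02 for all tested genes, and 0.31 in EBs, against -0.02.

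With the replicate letter as a block, 5 of 10 were called in ESCs, where 29.3% of all tested genes were called (14% higher and 15.3% lower). Wtap, Virma and Rbm15 were higher in KO, and Mettl14 and the knocked-out gene Mettl3 were lower. In EBs 3 of 10 were called with the block, where 22.7% of all tested genes were called (9.27% higher and 13.4% lower). Wtap was higher in KO and Mettl3 and Mettl16 were lower. Without both C libraries, 7 of 10 were called in each state, where 55.2% of all tested genes were called in ESCs and 51.9% in EBs. On recovered reads, edgeR called Mettl3 alone in ESCs (2.15% of all tested genes) and in EBs (1.78%). DESeq2 called Mettl3, Virma and Wtap in ESCs (12.4%) and Mettl3 and Wtap in EBs (9.83%). The sum of the 10 normalized counts was 8127, 8468 and 7346 in KO ESCs, against 5042, 5298 and 6051 in WT ESCs. In EBs the sum was 5818 and 6206 in KO, against 4570 and 4664 in WT. Mettl3 made up 1.58% to 1.78% of that sum in KO ESCs and 7.02% to 8.37% in WT ESCs, while Wtap made up 32.1% to 37.6% in KO ESCs and 18.2% to 33.6% in WT ESCs. The sums mix genes of unequal length, so they compare libraries and not genes.

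**Figure D4:**
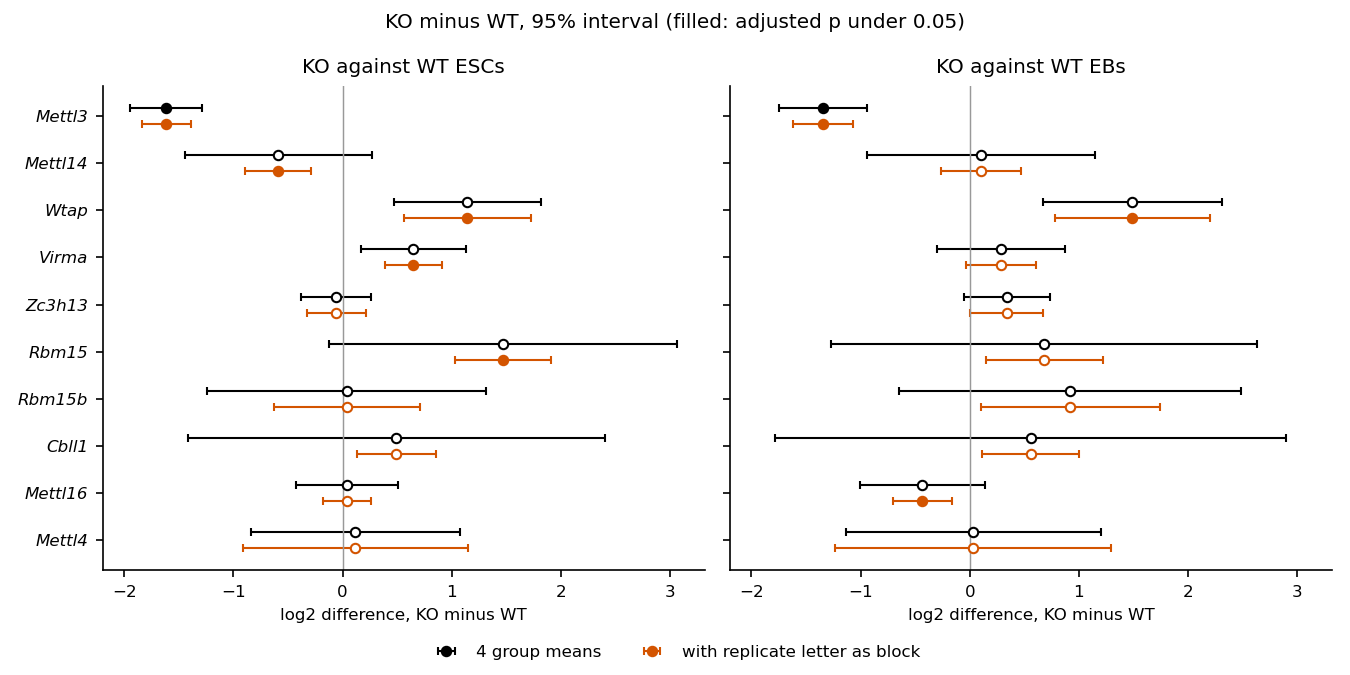
Log2 difference of KO minus WT (horizontal axis) for each of the 10 genes, in ESCs on the left and EBs on the right; black points come from the fit of 4 group means, orange points from the fit with the replicate letter as a block, lines are 95% intervals, and filled points have an adjusted p under 0.05. Mettl3 is filled in both fits and both states; Wtap, Virma, Rbm15 and Mettl14 in ESCs and Wtap and Mettl16 in EBs are filled with the block.

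Comparing EBs with ESCs asks how the writers change as the cells leave the naive state. None of the 10 was called by limma in WT (2.48% of all tested genes were called) or in KO (0.805%). At an unadjusted p under 0.05 there was 1 in WT, Wtap, and there were 2 in KO, Wtap and Mettl16. Counts with edgeR were 0 in both genotypes (2.78% of all tested genes in WT and 1.22% in KO). DESeq2 called Wtap in WT (9.66%) and none in KO (8.99%). Without both C libraries 2 were called in WT (46.1%) and 4 in KO (47.3%). Wtap was lower in EBs than in ESCs without overlap in both genotypes, with a log2 difference of -1.43 in WT (SE 0.32, limma adjusted p = 0.0731) and -1.09 in KO (SE 0.32, limma adjusted p = 0.178). With the counts of Gm14292 added, Wtap was called in WT, at -1.27 (limma adjusted p = 0.0458), and not in KO, at -0.97 (adjusted p = 0.128). Without both C libraries Wtap was called in both, at -1.07 in WT (adjusted p = 2.11e-05) and -1.07 in KO (adjusted p = 2.05e-05).

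Mettl16 was lower in KO EBs than in KO ESCs without overlap, a log2 difference of -0.63 (SE 0.22, limma adjusted p = 0.265, and 0.0108 without both C libraries). Zc3h13 and Rbm15b were lower in WT EBs than in every WT ESC library, with log2 differences of -0.34 (limma adjusted p = 0.370) and -0.995 (limma adjusted p = 0.553). Virma was higher in WT EBs than in every WT ESC library, by 0.25 (limma adjusted p = 0.709), and Mettl3 was higher in KO EBs than in every KO ESC library, by 0.16 (limma adjusted p = 0.713). In WT, the share of all tested genes whose libraries did not overlap was 23.2% for higher and 19.4% for lower in EBs, against 1 and 3 of the 10 members. In KO it was 21.2% for higher and 20.5% for lower, against 1 and 2 members.

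The KO effect itself was compared between EBs and ESCs with the interaction of genotype and state. None of the 10 was called by limma, where 0.475% of all tested genes were, none by edgeR (0.532%) or DESeq2 (4.9%), none with the replicate block (7.79%), and none had an unadjusted p under 0.05 in limma. Without both C libraries Mettl14 and Rbm15 were called, where 36.1% of all tested genes were. Mettl14 had the estimate 0.69 (SE 0.58, limma adjusted p = 1, and 0.0900 with the replicate block), and 0.82 without both C libraries (SE 0.18, adjusted p = 0.0072). Rbm15 had -0.79 (SE 1.09, limma adjusted p = 1, and 0.147 with the replicate block), and -0.54 without both C libraries (SE 0.14, adjusted p = 0.0152). For Mettl3 the interval of the difference was -0.25 to 0.79 on the log2 scale, and for Wtap it was -0.72 to 1.41.

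Levels between genes were set per kb of annotated exon. Wtap was the highest in ESCs, with 434 ± 13.9 normalized counts per kb in KO and 209.9 ± 100.1 in WT (SD, n = 3 each). Rbm15 was the highest in EBs, with 225 ± 13.2 in KO and 140.5 ± 16.3 in WT (SD, n = 2 each), followed in KO by Wtap at 204 ± 10.7 and in WT by Virma at 109.8 ± 6.71. Mettl3, per kb, was 26.4 ± 0.763 in KO ESCs, where it took rank 8 and did not differ beyond the spread from Mettl14 above it or Mettl4 below it. In WT ESCs it was 81.4 ± 3.55, at rank 5, with Mettl16 within the spread below it and Virma above it, without overlap. In KO EBs it was 29.6 ± 0.986, at rank 7, and in WT EBs 75.6 ± 4.28, at rank 4, in both within the spread of the next gene below, Mettl4 in KO and Wtap in WT, and in KO also of Mettl14 above. Mettl14 had 27.9 ± 14.1 per kb in KO ESCs and 40.2 ± 13.4 in WT ESCs. Rbm15b was the lowest in all 4 groups, at 12.4 ± 4.69 in KO ESCs, 13.8 ± 10.8 in WT ESCs, 11 ± 2.52 in KO EBs and 5.70 ± 0.909 in WT EBs.

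The order depends on which length is used. With the longest coding transcript of Mettl3, 2025 bases, in place of the 5076 bases of all its exons, Mettl3 had 204 ± 8.91 per kb in WT ESCs and took rank 2, and 66.2 ± 1.91 in KO ESCs, at rank 6. Wtap stayed at rank 1 in ESCs and took that rank in KO EBs as well, while Rbm15b stayed at rank 10 in all 4 groups.

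**Figure D5:**
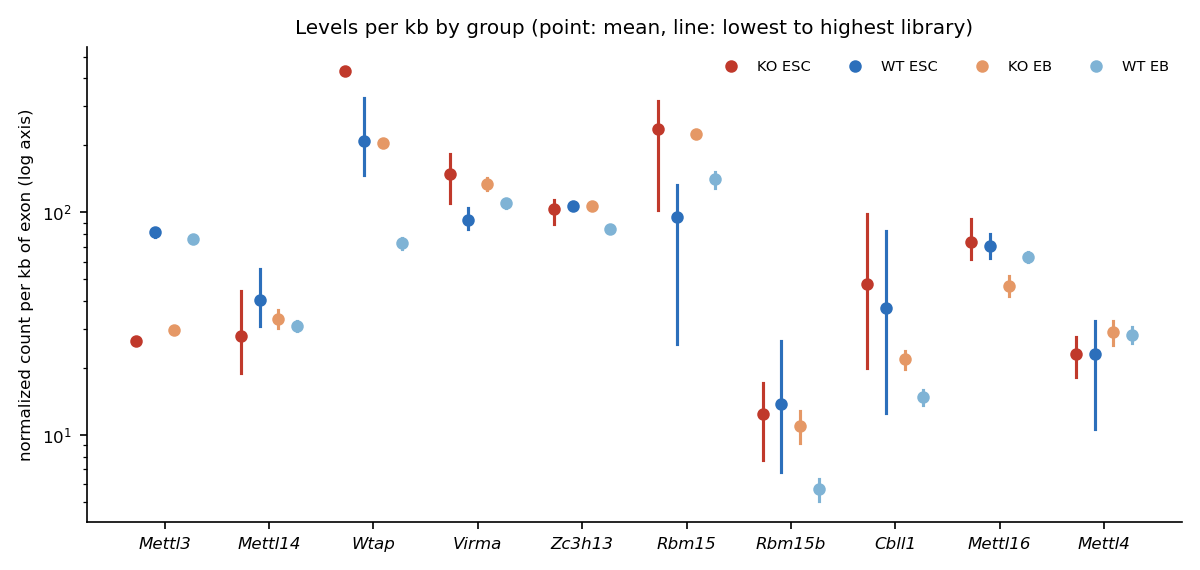
Normalized count per kb of annotated exon (vertical axis, log scale) of each of the 10 genes in KO ESCs, WT ESCs, KO EBs and WT EBs; points are means and lines run from the lowest to the highest library. Wtap tops the ESC groups at 434 in KO and 209.9 in WT, Rbm15 tops the EB groups at 225 in KO and 140.5 in WT, and Rbm15b is lowest in all 4.

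The letters GGACT, the commonest core of the m6A consensus, were counted in the longest coding transcript of each member as a feature the choice of genes did not use. Mettl3 held 1.98 per kb (4 matches) and Wtap 1.88 (6 matches). The median was 1.06 (quartiles 0.644 and 1.53) over 13363 transcripts of tested genes, of which 92.5% held a match. Only the transcript's own strand was searched. Rbm15 held 0.461 per kb (2 matches), the lowest of the set, and the other 7 held 0.695 to 1.27. With so few matches in a transcript, these densities are rough. A match of the letters does not show that a site is methylated.

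By a fixed rule, the 5 genes whose centred log2 profile over the 10 libraries was most like that of Mettl3, among 10083 genes with a mean of at least 100, overlapping no Mettl3 exon, were Vps53, Ube2l6, Cope, Dhx40 and Aldoa. Their mean absolute log2 difference from Mettl3 per library was 0.161, 0.172, 0.204, 0.215 and 0.219. Vps53, a subunit of vesicle tethering complexes, averaged 130 in KO ESCs and 290 in WT ESCs, and 123 in KO EBs and 328 in WT EBs. Ube2l6, an ISG15-conjugating enzyme, averaged 51.7 in KO ESCs and 193 in WT ESCs, and 65.2 in KO EBs and 184 in WT EBs. The likeness was the ground of the choice and carries no test.

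Other genes of the pathway were read from lists chosen with earlier results known. Of 16 readers and erasers of m6A, 2 rose in KO ESCs and 1 fell, where 1.31% of all tested genes were called higher and 1.07% lower. The median log2 difference was -0.16, against -0.02 for all tested genes. With the replicate block 5 were higher and 5 lower in ESCs, where 29.3% of all tested genes were called, and 2 were higher and 4 lower in EBs, where 22.7% were. Ythdf2, which sends marked transcripts to decay, averaged 2301 ± 253.5 in KO ESCs and 897 ± 85.3 in WT ESCs (SD, n = 3 each), a log2 difference of 1.36 (SE 0.14, limma adjusted p = 0.0176). Ythdc1, the nuclear reader, averaged 2266 ± 206 in KO ESCs and 1003 ± 110 in WT ESCs (1.18, SE 0.14, limma adjusted p = 0.0193). Igf2bp3, a reader that stabilizes its targets, averaged 294 ± 65.4 in KO ESCs and 829 ± 211.2 in WT ESCs (-1.49, SE 0.23, limma adjusted p = 0.0303). Ythdf2 and Ythdc1 rose in KO EBs too, by 0.99 (limma adjusted p = 0.0384) and 1.04 (limma adjusted p = 0.0306), and Igf2bp1 fell there by 1.06 on the log2 scale (limma adjusted p = 0.0306). In EBs 0.469% of all tested genes were called higher and 1.37% lower, and the median of the list was -0.24, against -0.02 for all tested genes. DESeq2 called these 3 and Igf2bp3 in EBs, where it called 9.83% of all tested genes, and edgeR called none of the list there. The most abundant member, Hnrnpa2b1, did not pass in ESCs (-0.12, adjusted p = 0.999) or EBs (-0.24, adjusted p = 1). Igf2bp3 was also lower in WT EBs than in WT ESCs (-1.37, limma adjusted p = 0.0415), where 0.475% of all tested genes were called lower.

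Of 26 other RNA methyltransferases, 25 were tested and none was called by limma in ESCs or EBs, with 3 in each at an unadjusted p under 0.05. None was called by edgeR. DESeq2 called 1 in ESCs, where it called 12.4% of all tested genes, and 2 in EBs, where it called 9.83%. With the replicate block 6 were called in ESCs (29.3% of all tested genes) and 4 in EBs (22.7%), which are 24% and 16% of the list. The median log2 difference was -0.09 in ESCs and 0.15 in EBs, against -0.02 for all tested genes in both. The most abundant, Nsun2, which methylates cytosine in transfer RNA, averaged 2561 ± 909.1 in KO ESCs and 3345 ± 1258 in WT ESCs (SD, n = 3 each), a log2 difference of -0.38 (limma adjusted p = 0.659, and 0.0091 with the block). Of 14 genes of S-adenosylmethionine supply 13 were tested, and 2 fell in KO ESCs, where 1.07% of all tested genes were called lower, with a median of -0.32, against -0.02 for all tested genes. With the replicate block 1 was higher and 6 were lower in ESCs, where 29.3% of all tested genes were called. DESeq2 called 4 lower in ESCs, Shmt1, Mthfd1, Shmt2 and Mat2b, where it called 12.4% of all tested genes, and edgeR called none of the list. Mthfd1, a folate enzyme, averaged 2017 ± 206.1 in KO ESCs and 3778 ± 501.7 in WT ESCs (-0.90, SE 0.15, limma adjusted p = 0.0368). Mat2b, the regulatory subunit of the synthetase, averaged 700.1 ± 60.3 in KO ESCs and 1127 ± 1.58 in WT ESCs (-0.69, SE 0.13, limma adjusted p = 0.0422). Mat2a, the catalytic subunit and METTL16 target, averaged 2067 ± 1885 in KO ESCs and 2225 ± 1899 in WT ESCs, with overlapping libraries (-0.15, limma adjusted p = 0.999). In EBs none of the 13 was called by limma, with 3 at an unadjusted p under 0.05, none by edgeR, 2 by DESeq2 (9.83% of all tested genes) and 5 with the replicate block (22.7%), and the median was -0.13. Mthfd1 averaged 1785 ± 1.12 in KO EBs and 2560 ± 64.4 in WT EBs (SD, n = 2 each), a log2 difference of -0.52 (limma adjusted p = 0.259, and 0.0098 with the block).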

How the data were processed

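RNA-seq libraries of KO and WT ESCs (3 each) and EBs (2 each) were analysed, and 1 library of embryonic fibroblasts was not analysed here. Per the submitters' processing notes, CASAVA 1.8.2, Bowtie, TopHat2 2.0.10, HTSeq 0.6.0 and DESeq were used with build mm10. The deposited signal is a count per gene divided by a size factor for each library, and the labels name poly(A) RNA and a TruSeq kit that does not keep the strand. Against the poly(A) label, the 6 RNAs with no poly(A) tail summed to 275000 or more in every library but ESC replicate C. There they summed to 200 in KO and 102 in WT. Whether the libraries were prepared unlike each other was not tested. Whole reads were recovered for 100% of values above 0 within 0.01 of a whole number, and 5 summary lines that name no gene were left out. The line for reads outside annotated genes held 34.0% to 38.8% of each library's total over all lines. The members and lists were chosen with earlier results of these data known. The rule for named genes took all 10 members, genes whose exons overlap Mettl3, up to 4 called genes of each list by size and its most abundant gene that did not pass, and the 5 genes most like Mettl3. Gm14292 and Gm29542 were named after their values or overlaps were seen.

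limma 3.58.1 in R 4.3.3 was fitted to log2(value + 1) of 15781 genes with a mean of at least 10, with 4 group means, trended robust variances, two-sided tests and Benjamini-Hochberg adjustment within each comparison. A fold on this scale understates the change of low genes. Settings tried were other pseudocounts, no filter, TMM rescaling, the replicate letter as a block, the 2 groups alone, each library left out, both C libraries left out, the counts of Gm14292 added to Wtap, and edgeR 4.0.16 and DESeq2 1.42.0 on recovered reads. Same-letter KO and WT ESC libraries had deviations from their group means that correlated at 0.845 for A, 0.828 for B and 0.858 for C across genes, each over the 0.1 set for pairing. The crossed pairs of A and B correlated nearly as well, at 0.812 and 0.809, so the correlations mostly set C apart from A and B. For EBs, with 2 pairs, the value was 0.369 and does not decide. In simulated data of 15781 genes, replicate C was shifted by the same amount per gene in both genotypes, the mean of the observed shifts. The block assumes such a shared shift, so this setting favours it by design. Observed shifts were not always shared, as for Wtap, at 1.03 times the mean of A and B in KO and 2.14 times in WT. The main fit recovered 30% and the block 87% of genes changed by a log2 of 2 in ESCs, and 18% and 78% in EBs. Of genes changed by a log2 of 1, the main fit recovered 2% and the block 65% in ESCs, and 0% and 56% in EBs. With replicate C simulated like A and B, each fit recovered 96% of the larger and 84% of the smaller changes in ESCs. In EBs the main fit then recovered 96% and the block 95% of the larger changes, and 77% and 74% of the smaller. These percentages depend on the spread set for the simulated data, and whether the libraries share that spread was not tested.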

Additional observations from a re-analysis of the deposited data

Results flagged for a closer look

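The KO over WT ratio of Mettl14 was below 1 in all 3 ESC pairs and slightly above 1 in both EB pairs, and the mean log2 ratio was 0.693 higher in EBs. The EB ratios were 1.03 (95% counting interval 0.877 to 1.22) and 1.12 (0.948 to 1.31), and both intervals hold 1. The EB difference of 0.10 was not called (limma adjusted p = 1, and 0.658 with the replicate block), and it was -0.033 without KO EB replicate B, so no direction in EBs was shown. The interaction of genotype and state was 0.82 without both ESC replicate C libraries (limma adjusted p = 0.0072). With all libraries it was 0.69 and not called (limma adjusted p = 1, and 0.0900 with the replicate block). Rbm15 was flagged by the same interaction, at -0.54 without both C libraries (limma adjusted p = 0.0152). With KO over WT ratios of 1.54 and 1.67 in EBs, it was higher in KO in both states. The share of all tested genes called for this interaction without the C libraries was 36.1%, so these 2 of 10 members are not above the background.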

How the results depend on the processing

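Over 50 member results there were 928 alternative values, of which 823 kept direction and side of the threshold, 44 were called only there, 13 lost their call and 48 changed sign. Writers called in KO against WT ESCs numbered 1, and 5 with the replicate block, 7 without both C libraries, 0 from the 2 groups alone, 3 with DESeq2 and 0 to 2 with 1 library left out. In EBs the 1 became 3, 7, 7, 2 and 0 to 2 under the same settings. For EBs against ESCs the count of 0 became 1 with no filter, 2 without C, 1 with DESeq2 and 0 to 1 with 1 library left out in WT, and 4 without C and 0 to 1 in KO. For the difference of KO effects it became 2 without C. With the counts of Gm14292 added, Wtap was called too in KO against WT ESCs and in WT EBs against ESCs. All genes called in ESCs (376) became 45 with no filter, 4627 with the block, 8715 without C, 0 from 2 groups, 1959 with DESeq2 and 0 to 2177 with 1 library left out. In EBs (290) these were 1351, 3578, 8196, 7768, 1552 and 0 to 1162. For WT EBs against ESCs they were 1655 with no filter, 7278 without C, 60 from 2 groups, 1525 with DESeq2 and 5 to 1206. For KO (127) they were 215 with pseudocount 5, 7465 without C, 0 from 2 groups, 193 with edgeR, 1419 with DESeq2 and 0 to 947. For the difference (75) they were 45 with pseudocount 0.5, 166 with pseudocount 5, 1230 with the block, 5703 without C, 774 with DESeq2 and 0 to 497.

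Values that changed sign without both C libraries were, for KO against WT ESCs, Zc3h13 at 0.078, Mettl16 at -0.052 and Mettl4 at -0.51. For EBs against ESCs they were Cbll1 at 0.037 and Mettl4 at -0.061 in WT, and Zc3h13 at -0.050, Rbm15 at -0.43 and Rbm15b at 0.15 in KO. For the difference they were Wtap at -0.0053, Cbll1 at -0.054 and Mettl4 at 0.54. With edgeR and DESeq2 they were Rbm15b at -0.097 and -0.13 in ESCs, Rbm15 at -0.046 and -0.060 in KO EBs against ESCs, and Mettl4 at 0.052 and 0.084 in the difference, and Mettl4 at -0.040 in ESCs with DESeq2. With 1 library left out, ESC differences ran from -0.13 to 0.045 for Zc3h13, -0.33 to 0.63 for Rbm15b, -0.22 to 1.33 for Cbll1, -0.14 to 0.15 for Mettl16 and -0.37 to 0.43 for Mettl4. EB differences ran from -0.033 to 0.24 for Mettl14 and -0.15 to 0.22 for Mettl4. For WT EBs against ESCs the ranges were -1.31 to 0.037 for Cbll1 and -0.061 to 0.73 for Mettl4. For KO they were -0.31 to 0.058 for Virma, -0.050 to 0.12 for Zc3h13, -0.43 to 0.39 for Rbm15 and -0.42 to 0.15 for Rbm15b. For the difference they were -0.020 to 0.55 for Wtap, -0.77 to 0.78 for Cbll1 and -0.40 to 0.40 for Mettl4. The cause of these changes was not tested. Where an EB library is left out, the lone library is assumed to vary like the other groups.

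With the replicate block, calls changed for Wtap, Virma, Rbm15 and Mettl14 in ESCs and Wtap and Mettl16 in EBs, as given above, and for no other member. No paired analysis was possible because letters name different libraries in EBs and ESCs for the comparison of EBs with ESCs. In replicate C 1 read is worth 2.78 normalized counts in KO and 3.29 in WT, against 0.544 to 0.908 elsewhere, which limits low members such as Rbm15b and Cbll1.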
